A study of Rattus norvegicus with 9 samples.

Results

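The Groucho corepressors and the Bcl11 zinc-finger repressors were followed as a family of 8 genes, Tle1, Tle2, Tle3, Tle4, Tle6, Aes, Bcl11a and Bcl11b, each found by its symbol in both all-gene tables of 26854 genes. The tables describe RNA of cultured pinealocytes, the melatonin-making cells of the pineal gland, from adult Sprague-Dawley rats. The cells received a non-targeting short interfering RNA (siNT), an siRNA against the homeobox gene Lhx4 (siLhx4) or an siRNA against the homeobox gene Bsx (siBsx), each at 40 nM with a lipid reagent. Each of the 3 groups had 3 libraries, and the comparisons ask which transcripts change with the siRNA against each homeodomain factor. A single siRNA was used per target, and the labels do not say whether the libraries of a group came from separate cultures or animals, so p-values measure the spread between these libraries only. The 8 genes were listed as a family after results of these data were known: Tle6 and Bcl11b stood among the largest falls with siBsx, so the siBsx values are given as a description.

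Groucho proteins, named Tle in mammals, do not bind DNA themselves. Hes and Hey proteins, Runx proteins, the TCF/LEF factors of Wnt signalling and many homeodomain proteins bring them to genes, where Groucho proteins oligomerise and recruit histone deacetylases. Tle1 to Tle4 are the full-length corepressors, Aes (Tle5 in the current nomenclature) is a short form without the WD-repeat domain that can counter them, and Tle6 is a divergent member that in mouse was found to oppose Tle1 and to act in the oocyte. Bcl11a and Bcl11b are DNA-binding repressors that work with the NuRD and BAF chromatin complexes. In mouse, Bcl11a is known for silencing embryonic globin genes and Bcl11b for T lymphocyte commitment and for corticospinal neurons.

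Both siRNAs lowered their targets. The 3 siNT libraries held 18330.5 to 19156 normalized counts of Lhx4 and the 3 siLhx4 libraries 3419.7 to 3634, without overlap. Bsx stood at 20.7% of siNT with siBsx and at 55.2% of siNT with siLhx4, computed from the authors' deposited tables. The siLhx4 libraries thus had less of both factors. Which siLhx4 changes, those of Tle6 and Tle2 included, go with Lhx4 and which with Bsx was not tested. Values per library were used for 14 genes chosen by the authors in the siNT and siLhx4 libraries, and 0 of the 8 family genes are among them, so the family is described by group means. These means were computed from the mean normalized count and the log2 fold change of each table, and the siNT means from both tables differed by a ratio of at most 1.01 and at least 0.988 over 14876 genes. Their errors (SE) were computed from the dispersion implied by the standard errors of the siBsx table.

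Tle6, the divergent family member, was lower with each knockdown, and its lowest group mean was that of siBsx. Its group mean was 530 ± 38 normalized counts (SE, n = 3) in siNT, 296 ± 22 (SE, n = 3) in siLhx4 and 138 ± 12 (SE, n = 3) in siBsx. The level was thus 55.9% of siNT with siLhx4 (95% interval 45.7% to 68.2%) and 26.1% with siBsx (21.0% to 32.4%). In the authors' deposited table, the log2 fold change of Tle6 with siLhx4 was -0.84, with a computed SE of 0.15 (adjusted DESeq2 p = 3.43e-07). With siBsx it was -1.94 ± 0.16 (log2, SE) in the authors' deposited table, rank 4 from the lowest of 14876 tested genes. In bulk RNA such as this, fewer cells that make a transcript and less of it per cell cannot be told apart.

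Tle2, a full-length corepressor, had the same order of group means. It stood at 636 ± 41 normalized counts (SE, n = 3) in siNT, 484 ± 32 (SE, n = 3) in siLhx4 and 317 ± 22 (SE, n = 3) in siBsx, or 76.2% of siNT with siLhx4 (95% interval 63.7% to 91.1%) and 49.8% with siBsx (41.4% to 59.9%). The authors' deposited table gave Tle2 a log2 fold change of -0.39 with siLhx4, with a computed SE of 0.13 (adjusted DESeq2 p = 0.0201). Its log2 fold change with siBsx was -1.01 ± 0.14 (SE) in the authors' deposited table. A t distribution of 6 degrees of freedom was also used in place of the normal one, on the recomputed DESeq2 statistic. The siLhx4 change of Tle2 then no longer passed (adjusted p = 0.172), while that of Tle6 did (0.0365). With 4 degrees of freedom neither passed (0.284 and 0.136). At that setting 0 of all tested genes passed with siLhx4, so nothing is read from it for Tle2 or Tle6. The target Lhx4 entered with its deposited DESeq2 p of 1e-200, which appears to be a lower limit. Its own failure to pass is therefore not read. Both comparisons use the same siNT libraries, so their values for a gene are not independent of each other.

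**Figure D1:**
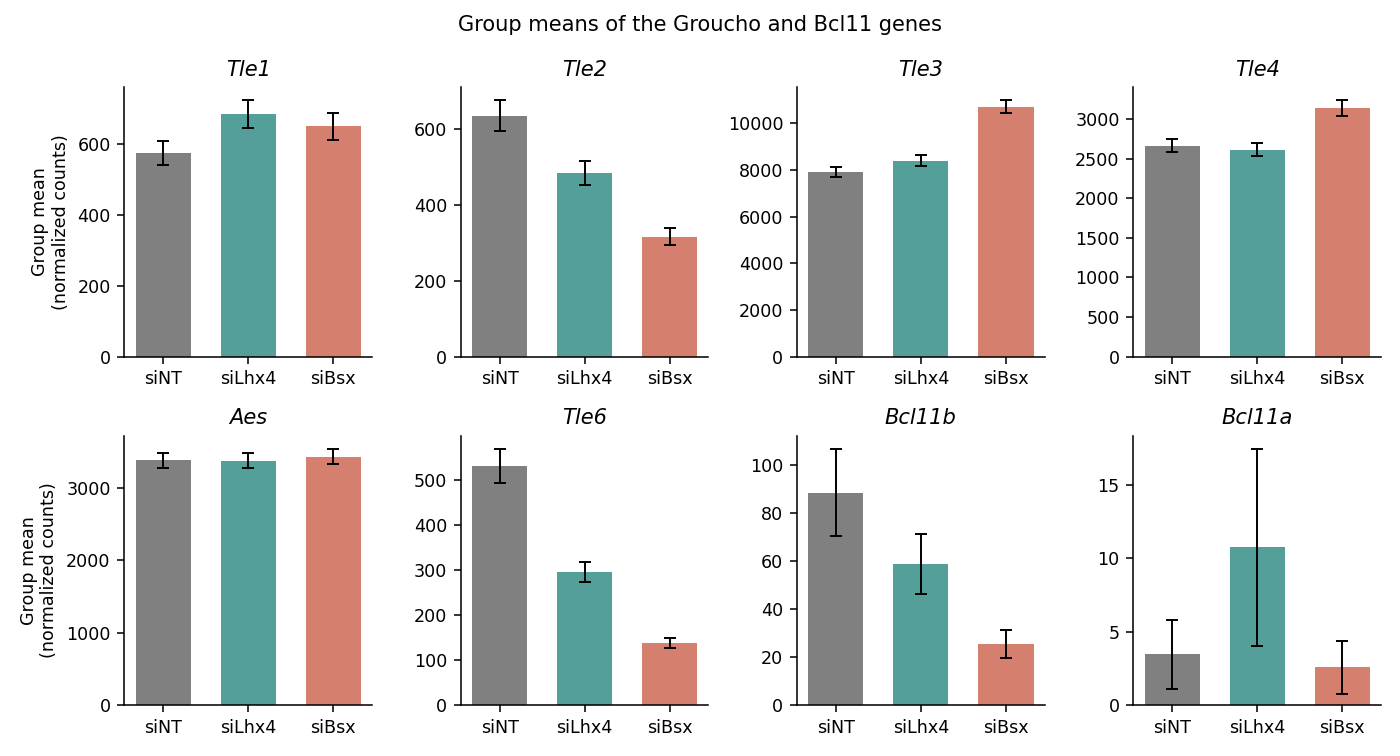
Group means in normalized counts (vertical axis, from 0, a separate scale for each gene) of the 8 genes in siNT, siLhx4 and siBsx. Bars are means of 3 libraries implied by the authors' tables and whiskers are the SE computed from the implied dispersion. Tle6, Tle2 and Bcl11b step down from siNT to siLhx4 to siBsx, Tle3 and Tle4 are highest in siBsx, and Aes is level.

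Tle6, Tle2 and Aes are consecutive protein-coding genes of rat chromosome 7 in the RefSeq annotation of build GRCr8, and their promoter windows are shown because Tle6 and Tle2 were lower with each siRNA while Aes, next to them, did not pass. Each window runs from 250 bases before to 50 bases after a RefSeq start site, 5′ to 3′ on the gene's strand. The Tle6 window lies at chr7:8757596-8757895 (plus strand, the first of 4 listed starts), that of Tle2 at chr7:8785016-8785315 (minus strand) and that of Aes at chr7:8800873-8801172 (minus strand). Capitals mark matches on either strand to the paired homeodomain core TAATTA, the core of the Crx type, which reads TAATCC, the general homeodomain core, which reads TAAT, the E-box, which reads CACGTG, and the full cAMP response element TGACGTCA.
Tle6: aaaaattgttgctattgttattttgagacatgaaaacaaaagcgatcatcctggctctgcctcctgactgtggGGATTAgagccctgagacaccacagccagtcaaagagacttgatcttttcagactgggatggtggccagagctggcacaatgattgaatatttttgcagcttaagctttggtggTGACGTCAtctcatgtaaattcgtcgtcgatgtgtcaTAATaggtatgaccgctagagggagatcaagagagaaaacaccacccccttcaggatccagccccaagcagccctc
Tle2: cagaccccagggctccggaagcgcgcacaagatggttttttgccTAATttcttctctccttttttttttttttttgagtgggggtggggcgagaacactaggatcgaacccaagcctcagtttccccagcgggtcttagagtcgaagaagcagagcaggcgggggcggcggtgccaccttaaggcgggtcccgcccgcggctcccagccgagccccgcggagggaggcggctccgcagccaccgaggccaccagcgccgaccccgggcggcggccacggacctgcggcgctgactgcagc
Aes: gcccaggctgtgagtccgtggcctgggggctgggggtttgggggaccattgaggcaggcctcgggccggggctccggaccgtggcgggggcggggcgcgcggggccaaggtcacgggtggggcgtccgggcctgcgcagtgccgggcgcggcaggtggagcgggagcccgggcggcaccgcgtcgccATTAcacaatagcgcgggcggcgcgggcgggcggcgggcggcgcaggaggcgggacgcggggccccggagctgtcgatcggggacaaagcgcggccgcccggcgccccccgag

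The Tle6 window holds the cAMP response element TGACGTCA starting 63 bases upstream of the start site, which 1.83% of the 33469 rat promoter windows of the same length hold. Farther upstream, at 177 bases, it holds TAATCC on the reverse strand, the core of the Crx type, present in 7.17% of all windows. That match contains a TAAT, and another TAAT lies 26 bases upstream. TGACGTCA and TAATCC each occurred in 1 of the 10 windows of the family, so the other listed Tle6 starts hold neither. Which of the Tle6 starts these cells use was not tested. The Tle2 and Aes windows hold a TAAT each and none of the other letters searched. TAAT occurred in 60.6% of all windows and in 6 of the 10 windows of the family. The E-box CACGTG, found in 6.42% of all windows, occurred in the second and the third of the Tle6 starts. None of the 10 windows of the 7 family genes with a listed promoter held TAATTA, against 5.36% of all windows. These matches describe letters in a window and do not show binding.

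Of the 6 genes around Tle6, Tle2 and Aes, 1 was lower with siBsx, where 9.61% of all tested genes were lower. This gene, Gna11, a G protein alpha subunit of the Gq class lying next to Aes, had a log2 fold change of -0.67 ± 0.12 (SE; adjusted DESeq2 p = 1.97e-06) with siBsx in the authors' deposited table. With siLhx4 its log2 fold change was -0.18 in the authors' deposited table and did not pass (computed SE 0.12; adjusted DESeq2 p = 0.358). Aes, between Tle2 and Gna11, did not pass in either table. Zfp709l1, Ankrd24 and the deacetylase gene Sirt6 on the Tle6 side, and Ncln and Celf5 on the other, did not pass either, and the authors' deposited tables give them log2 values between -0.15 and 0.26. These 6 neighbours, the 3 nearest tested protein-coding genes on each side, were chosen after the family's values were seen. The 3′ ends of Tle6 and Tle2 face each other in the annotation. The strand setting used in counting was not given in the sources used here, and whether reads of one gene were counted to the other was not tested.

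**Figure D2:**
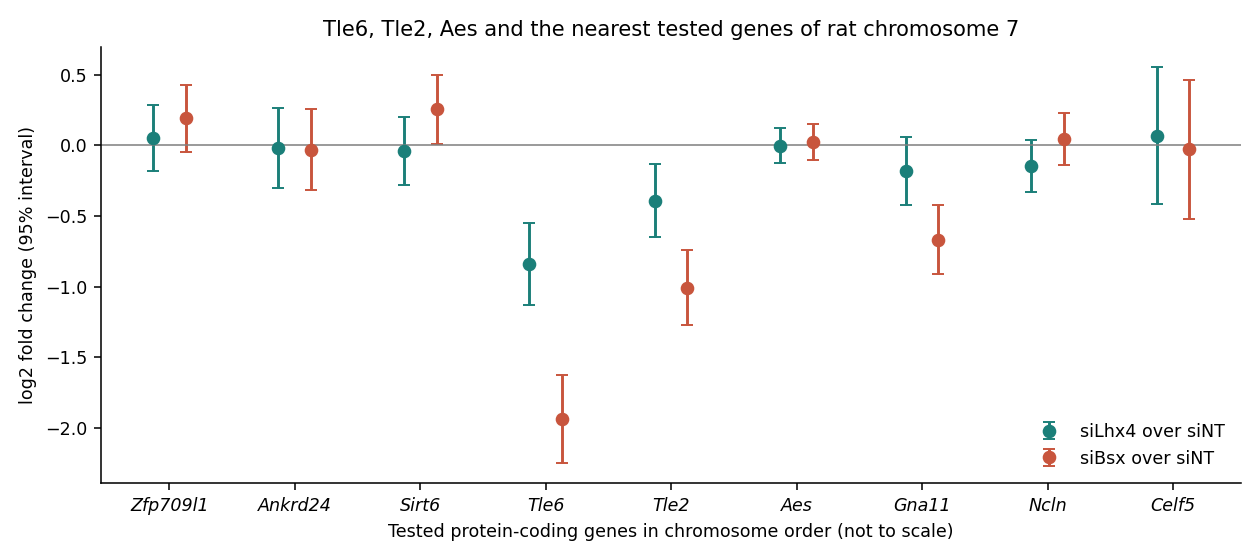
Log2 fold change over siNT (vertical axis) of Tle6, Tle2, Aes and the 3 nearest tested protein-coding genes on each side, in gene order along rat chromosome 7 (horizontal axis, not to scale). Points are the authors' values and bars are 95% intervals. Tle6 (-1.94 with siBsx) and Tle2 (-1.01) lie low, Aes between Tle2 and Gna11 lies at 0.02, and Gna11 lies at -0.67.

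Among the other Groucho genes, Tle3 and Tle4 were higher with siBsx, while Tle1 and Aes did not pass in either table. Tle3, a full-length corepressor, had group means of 7917 ± 207 normalized counts (SE, n = 3) in siNT, 8399 ± 219 (SE, n = 3) in siLhx4 and 10712 ± 278 (SE, n = 3) in siBsx. In the authors' deposited table its log2 fold change with siBsx was 0.44 ± 0.053 (SE), or 1.35-fold. With siLhx4 it was 0.09 in the authors' deposited table and did not pass (computed SE 0.053; adjusted DESeq2 p = 0.306). The siBsx mean of Tle3 thus stood above those of siNT and siLhx4, and the latter pair were not separated by the test.

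Tle4, also a full-length corepressor, had group means of 2663 ± 84 normalized counts (SE, n = 3) in siNT, 2613 ± 82 (SE, n = 3) in siLhx4 and 3141 ± 98 (SE, n = 3) in siBsx. Its log2 fold change with siBsx was 0.24 ± 0.064 (SE) in the authors' deposited table, or 1.18-fold. With siLhx4 the authors' deposited table gave -0.03 (computed SE 0.064; adjusted DESeq2 p = 0.85). RefSeq lists a Tle4 pseudogene, and because the handling of reads that match several places was not given in the sources used here, the Tle4 level carries that uncertainty.

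Tle1, the full-length corepressor that Tle6 was found to oppose in mouse, had group means of 574 ± 33 normalized counts (SE, n = 3) in siNT, 685 ± 39 (SE, n = 3) in siLhx4 and 649 ± 37 (SE, n = 3) in siBsx. The 95% interval of its level was 102% to 139% of siNT with siLhx4 and 96.5% to 132% with siBsx, and the siLhx4 change did not pass after adjustment (adjusted DESeq2 p = 0.115 in the authors' deposited table). Aes, the short form, had group means of 3374 ± 106 normalized counts (SE, n = 3) in siNT, 3369 ± 106 (SE, n = 3) in siLhx4 and 3427 ± 108 (SE, n = 3) in siBsx. Its 95% interval was 91.6% to 109% of siNT with siLhx4 and 93.2% to 111% with siBsx.

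The Bcl11 genes were the least precisely measured of the family. Bcl11b had group means of 88.6 ± 18 normalized counts (SE, n = 3) in siNT, 58.8 ± 12 (SE, n = 3) in siLhx4 and 25.6 ± 5.8 (SE, n = 3) in siBsx. The siBsx log2 fold change of Bcl11b was -1.79 ± 0.44 (SE) in the authors' deposited table, a level of 28.9% of siNT with a 95% interval from 15.9% to 52.8%, and rank 9 from the lowest of the tested genes. With siLhx4 the log2 fold change of -0.59 in the authors' deposited table did not pass (computed SE 0.42; adjusted DESeq2 p = 0.389), and its interval ran from 37.6% to 117% of siNT. Bcl11a had 3.46 normalized counts in siNT, 10.7 in siLhx4 and 2.59 in siBsx, and neither of the authors' deposited tables lists an adjusted p for it. Its 95% intervals ran from 52.8% to 1825% of siNT with siLhx4 and from 10.9% to 492% with siBsx, and both include the siNT level. The coefficient of variation implied by the dispersion was 34.1% for Bcl11b and 104% for Bcl11a, against 11.8% for Tle6 and 4.39% for Tle3. This is a value of the authors' model, not one measured between libraries, since the family has no values per library.

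**Figure D3:**
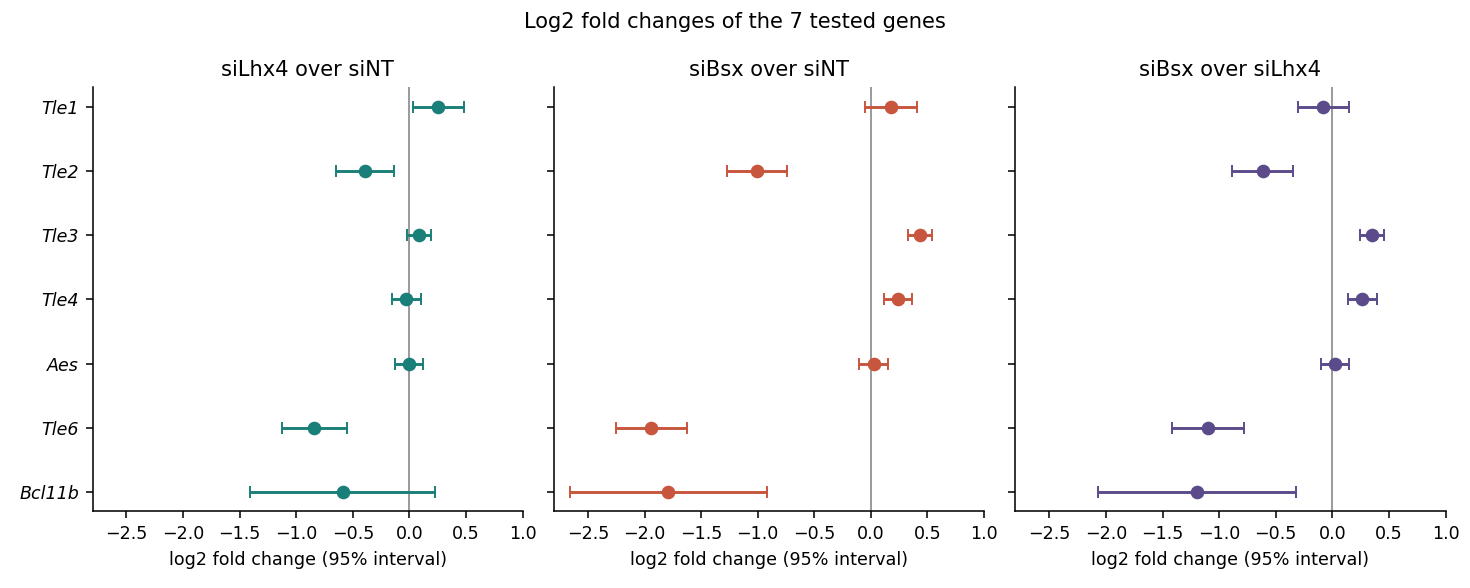
Log2 fold change (horizontal axis) of the 7 genes with an adjusted p, for siLhx4 over siNT, siBsx over siNT and siBsx over siLhx4. Points are the authors' values or their difference and bars are 95% intervals. Tle6, Tle2 and Bcl11b lie left of 0 in the right panel (-1.10, -0.61 and -1.20), Tle3 and Tle4 right of it (0.35 and 0.27), and the intervals of Tle1 and Aes include 0.

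Over the family, 7 of the 8 genes had an adjusted p in both tables. With siLhx4, 2 of these 7 passed, both lower, where 17.7% of all 14876 tested genes passed in either direction, 9.59% lower and 8.07% higher. With so few genes, that count is not read as a result about the family. With siBsx, 3 of the 7 were lower and 2 higher by the authors' calls, where 17.2% of all tested genes passed, 9.61% lower and 7.59% higher. Since this comparison was known when the genes were listed, nothing is read from that count. The median log2 fold change of the 7 was -0.03 with siLhx4 and 0.02 with siBsx, beside 0.00 for all tested genes in both.

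**Figure D4:**
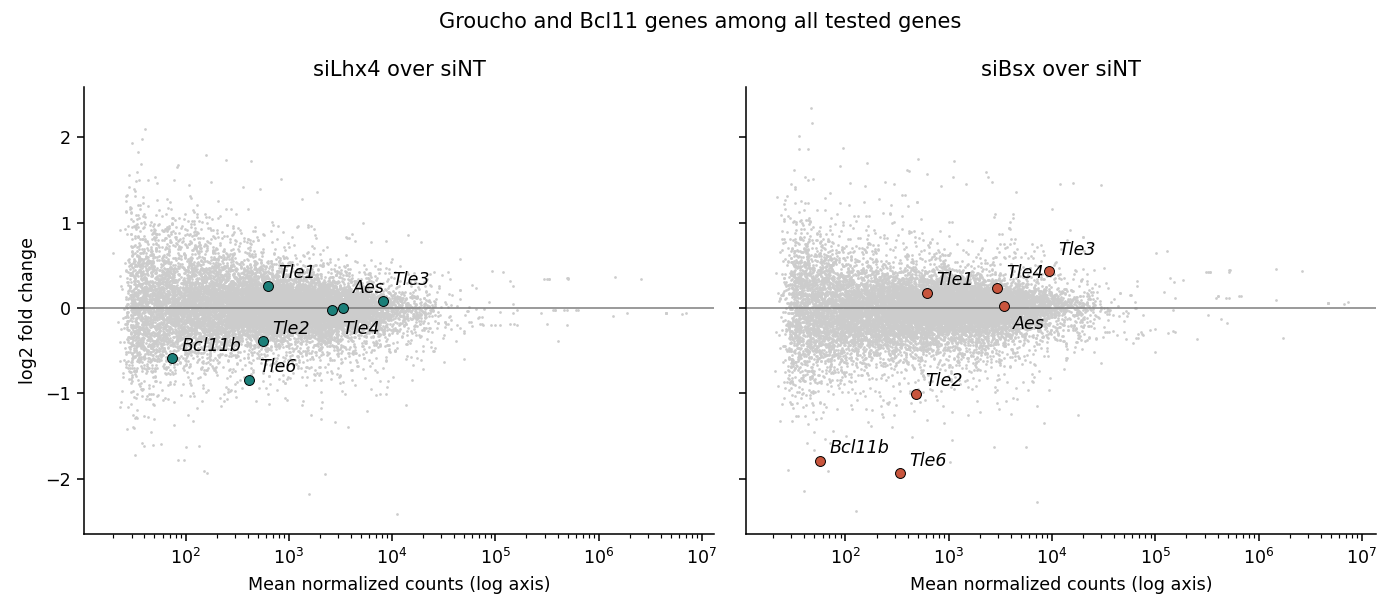
Log2 fold change over siNT (vertical axis) against mean normalized counts (horizontal log axis) for all 14876 tested genes (grey) and the 7 tested family genes (coloured), for siLhx4 and siBsx. With siBsx, Tle6 (-1.94) and Bcl11b (-1.79) lie at the lower edge of the cloud, and Tle3 (0.44) lies above 0 on the right of it.

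Levels in siBsx were also set beside those in siLhx4. A Wald test of this difference, rebuilt from both tables and adjusted over 14876 genes, called 22.7% of all tested genes, 11.9% lower and 10.8% higher in siBsx. It uses the siBsx libraries whose values were known when the genes were listed, so the family's differences are given as a description, with no p. The log2 difference of siBsx minus siLhx4 was -0.61 ± 0.14 (SE) for Tle2, or 65.4% of its siLhx4 level (95% interval 54.2% to 78.8%). It was 0.35 ± 0.053 (SE) for Tle3 (interval 119% to 137% of siLhx4) and 0.27 ± 0.064 (SE) for Tle4 (110% to 131%). For Tle1 the log2 difference was -0.08 ± 0.12 (SE; interval 81.0% to 111% of siLhx4) and for Aes it was 0.03 ± 0.064 (SE; interval 93.3% to 111%), and both intervals include an equal level. Tle6 stood at 46.7% of its siLhx4 level in siBsx (95% interval 37.4% to 58.3%) and Bcl11b at 43.6% (23.7% to 80.1%).

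The genes closest to Tle6, Bcl11b and Tle2 in both log2 fold changes were found among 11758 other genes with means of at least 50 normalized counts in both tables, as a distance between the pairs of log2 fold changes. This likeness rests on 3 group means that share siNT. Tle6 and Bcl11b were listed with their siBsx falls known, so their nearness to each other is not independent of the listing. The SE of the Bcl11b log2 fold change was 0.44 with siBsx and 0.42 with siLhx4, larger than any distance given here for Bcl11b. Tle6 was closest to Bcl11b (distance 0.29), to the immunoglobulin-domain gene Igsf9 (0.31) and to Bsx itself (0.34), which had log2 fold changes of -2.27 with siBsx and -0.86 with siLhx4 in the authors' deposited tables. Bcl11b was closest to Igsf9 (0.12), to the calcium sensor gene Cabp1 (0.16) and to the T-type calcium channel gene Cacna1g (0.20). Tle2 was closest to Pkmyt1, which encodes an inhibitory kinase of the cell cycle (0.04), to the fatty acid binding protein gene Fabp12 (0.04) and to the membrane receptor gene Paqr4 (0.05). These distances too were smaller than the SE of the log2 fold changes. With siBsx and siLhx4 the SE was 0.14 and 0.13 for Tle2 and 0.30 and 0.29 for Fabp12.

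The partner and marker lists that follow, like the family, were chosen with earlier results of these data known, and their p-values carry that limit. Over all tested genes, 17.7% passed with siLhx4 and 17.2% with siBsx. Of the bHLH repressors that use Groucho proteins, 5 of 10 Hes and Hey genes were tested. Hes1, a main effector of Notch signalling, rose with each knockdown, with log2 fold changes of 0.45 with siLhx4 (computed SE 0.14; adjusted DESeq2 p = 0.00994) and 0.58 ± 0.14 with siBsx (SE; adjusted DESeq2 p = 0.000516) in the authors' deposited tables. Heyl rose with siLhx4 by 0.46 (log2, computed SE 0.14; adjusted DESeq2 p = 0.0103) in the authors' deposited table. Hes6, Hey1 and Hey2 did not pass in either table.

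The 4 TCF and LEF genes, which switch from repression with Groucho to activation with beta-catenin, did not pass with siLhx4 (1 had an unadjusted p under 0.05). With siBsx, Lef1 fell by 0.75 ± 0.28 (log2, SE; adjusted DESeq2 p = 0.0417) and Tcf7l1 fell by 0.53 ± 0.20 (adjusted DESeq2 p = 0.0453) in the authors' deposited table. Their group means were 127, 134 and 75.6 normalized counts for Lef1 and 198, 207 and 138 for Tcf7l1, in siNT, siLhx4 and siBsx. Of 7 tested Wnt target genes, the feedback inhibitors Nkd1 (log2 fold change 0.80, computed SE 0.13, adjusted DESeq2 p = 3.43e-08) and Nkd2 (0.77, SE 0.28, adjusted DESeq2 p = 0.0315) rose with siLhx4 in the authors' deposited table. With siBsx, 0 of the 7 passed by DESeq2 (unadjusted p under 0.05 in 1).

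Of 18 other factors known to bind Groucho proteins, 12 had fewer than 20 normalized counts in siNT and 5 were tested. Runx1 (log2 fold change 0.53, computed SE 0.15, adjusted DESeq2 p = 0.00368) and the homeobox gene En1 (1.14, SE 0.43, adjusted DESeq2 p = 0.0488) rose with siLhx4 and the T-box gene Tbx20 (-0.68, SE 0.24, adjusted DESeq2 p = 0.0279) fell, by the authors' deposited table. With siBsx, 0 of the 5 passed by DESeq2 (unadjusted p under 0.05 in 0).

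Other corepressors and the chromatin complexes of Bcl11 proteins were read in the same way. Among the other corepressors, Rcor2 of the CoREST complex (log2 fold change 0.79, computed SE 0.15, adjusted DESeq2 p = 3.14e-06) and Ctbp2 (0.14, SE 0.051, adjusted DESeq2 p = 0.0343) rose with siLhx4 in the authors' deposited table. With siBsx, Ctbp2 (0.15, SE 0.051, adjusted DESeq2 p = 0.0212) and Gps2 (0.24, SE 0.090, adjusted DESeq2 p = 0.0445) rose in the authors' deposited table. Of 13 NuRD subunits, Gatad2b rose with siLhx4 (log2 0.33, SE 0.055, adjusted DESeq2 p = 3.95e-08) and with siBsx (0.29, SE 0.055, adjusted DESeq2 p = 3.65e-06), and the remodeller Chd3 fell with siBsx (-0.35, SE 0.053, adjusted DESeq2 p = 6.07e-10), in the authors' deposited tables.

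Of 22 BAF subunits, 5 fell and 2 rose with siLhx4, and 2 fell and 1 rose with siBsx. Of all tested genes, 9.59% were lower and 8.07% higher with siLhx4, and 9.61% and 7.59% with siBsx. With so few genes, the BAF counts are not read as a result about the complex. Smarca2, one of the alternative ATPases, fell by 0.32 with siLhx4 (SE 0.056, adjusted DESeq2 p = 2.39e-07) and by 0.28 with siBsx (SE 0.056, adjusted DESeq2 p = 1.48e-05) (log2 values of the authors' deposited tables). In the authors' deposited tables, Pbrm1 had log2 fold changes of 0.19 with siLhx4 (SE 0.050, adjusted DESeq2 p = 0.00145) and 0.24 with siBsx (SE 0.050, adjusted DESeq2 p = 2.75e-05). The median log2 fold change of the BAF list was -0.04 with siLhx4 and 0.04 with siBsx, and that of the NuRD list 0.07 and 0.00. In mouse, Tle6 also belongs to a maternal complex of the oocyte, of whose other genes 2 were tested and 0 passed DESeq2's test with either siRNA (0 at an unadjusted p under 0.05).

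**Figure D5:**
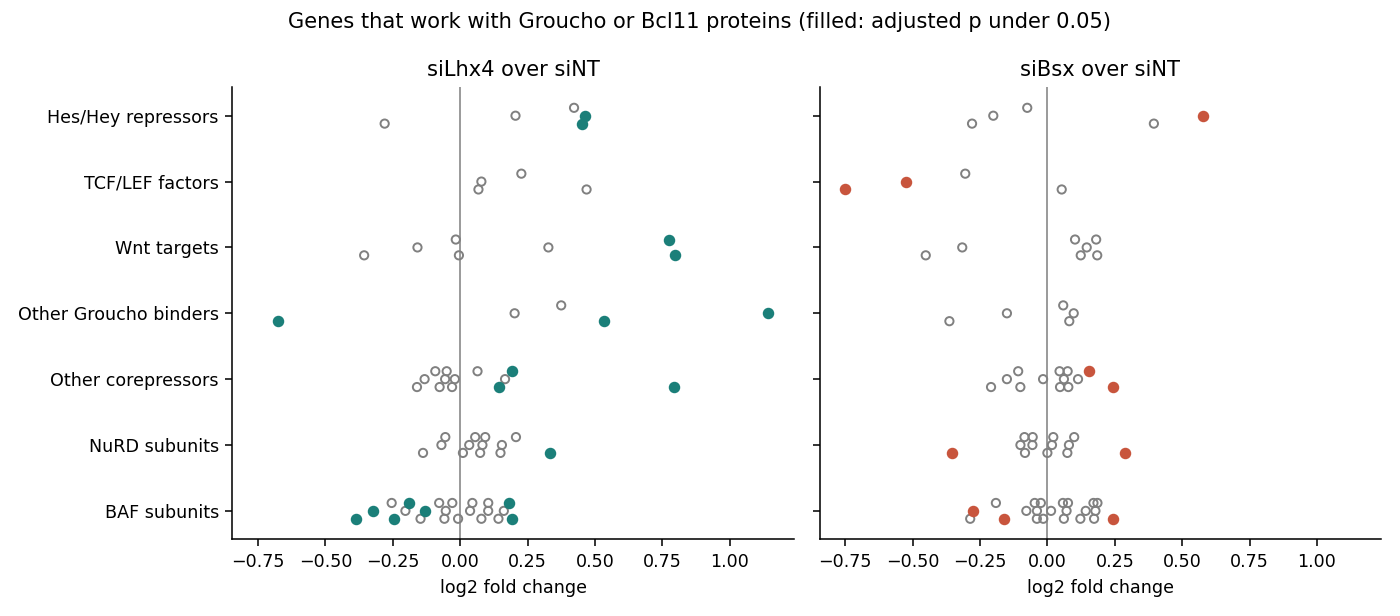
Log2 fold change over siNT (horizontal axis) of tested genes in 7 lists of factors that work with Groucho or Bcl11 proteins. Each circle is a gene, filled where the authors' adjusted p is under 0.05. The largest filled values are En1 (1.14) with siLhx4 and Lef1 (-0.75) with siBsx.

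Markers of the cell types that the cultures could hold were read beside these values. Of all tested genes, 9.59% were lower and 8.07% higher with siLhx4, and 9.61% and 7.59% with siBsx. The 9 pinealocyte markers summed to 558269 normalized counts in siNT, 417493 in siLhx4 and 517609 in siBsx, most of it Tph1, the first enzyme of melatonin synthesis, and none of them was at 0 in any group. With siLhx4, 7 of the 9 fell, the siRNA's own target Lhx4 among them. With siBsx, 4 fell, its target Bsx among them, and 3 rose, namely Sag, Asmt and Lhx4. Markers of T lymphocytes, the cells best known for Bcl11b, summed to 98.9, 102 and 124 in the same order. In each group 8 of the 10 were under 20 normalized counts, but not the same 8. Cd4 (22.5, 17.7 and 31.1) and Cd5 (19.0, 20.8 and 15.9) crossed that level. Cd3e stood at 5.99, 4.67 and 4.86, and no T lymphocyte marker was at 0 in all groups. The 8 neuron markers summed to 3508, 3726 and 3523, nearly all of it Slc17a6, so the sum describes that gene. In each group 5 of the 8 were under 20 normalized counts, but not the same 5. Rbfox3 stood at 0.89, 4.09 and 3.06. Of the 3 neuron markers tested, 0 passed by DESeq2 with either siRNA (unadjusted p under 0.05 in 1 with siLhx4 and in 0 with siBsx). Gad2, which has no adjusted p, had 15.9 normalized counts in siNT, 38.0 in siLhx4 and 15.5 in siBsx.

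Some markers of non-neuronal cells moved with the same libraries. Their counts stand beside the same shares of all tested genes, and with so few genes they are not read as a result about a cell type. Astrocyte markers summed to 12267 in siNT, 15262 in siLhx4 and 10498 in siBsx; 3 of 7 tested rose with siLhx4 and 3 fell with siBsx, among them Gja1 (log2 fold change -1.31 with siBsx in the authors' deposited table). Mural markers summed to 7019, 9819 and 3544, most of it Myh11 with 6201, 8932 and 2953, while Tagln stood at 117, 107 and 128. Of 4 mural markers tested, Myh11 rose with siLhx4 and Myh11 and Pdgfrb fell with siBsx. Fibroblast markers summed to 5419, 7114 and 4437, with 4 of 8 tested higher with siLhx4 and 3 lower with siBsx. Endothelial markers summed to 878, 1226 and 901, Schwann cell markers to 1418, 1751 and 1504, and microglial markers to 480, 453 and 532, with 1 of 7, 2 of 6 and 0 of 4 tested higher with siLhx4 and 0, 1 and 1 higher with siBsx. No gene of these lists was at 0 in all groups. The most abundant gene was Vim in the astrocyte list (4452, 6312 and 4021 in siNT, siLhx4 and siBsx) and Fn1 in the fibroblast list (3207, 3736 and 2659). Under 20 normalized counts in each group were 3 of 10 astrocyte genes, Gfap among them, and 3 of 7 mural genes. Not every gene followed its sum, as Slc1a2 of the astrocyte list stood at 1813, 1899 and 2016. The astrocyte, mural and fibroblast sums were highest in siLhx4 and lowest in siBsx, and Tle6, Tle2 and Bcl11b were highest in siNT and also lowest in siBsx. Their part in the changes of the Groucho and Bcl11 genes was not tested.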

How the data were processed

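Libraries came from 3 siRNA groups of 3. Per the submitters' processing notes, the tools included DESeq2 1.16.1, STAR 2.5.4a and featureCounts (Subread 1.5.2), with build rn6. The sources used here give neither annotation nor strand setting. The signal values are the authors' deposited mean normalized counts (counts over a size factor per library). The deposited log2 values are the authors' fold changes and, for siBsx, standard errors; the deposited score (Wald statistic) equals their quotient. The authors' deposited p-values are unadjusted and Benjamini-Hochberg adjusted; adjusted ones exist for 14876 genes with means of at least 19.8 (siLhx4) and 20.8 (siBsx). The authors' deposited ratio and percent columns restate the fold.

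From these, group means, siLhx4 standard errors (fold change over the normal quantile of its p) and dispersions were computed with Python 3.11.15, numpy 2.4.6, scipy 1.17.1 and pandas 2.3.3. The siBsx against siLhx4 difference used a two-sided Wald test with dispersions of the siBsx table, checked on simulated data. Dispersions from both tables had a median ratio of 0.979. Depth per library was not used here for the family; normal 95% intervals cover the authors' model error only. The genes named are the 8 members, list genes past an adjusted p of 0.05 (at most 5 per list, 3 for markers) and the 3 nearest genes. Members and lists were chosen with earlier results of these data known; the neighbouring genes and the promoter letters were chosen after seeing the values. RefSeq (GRCr8) matched 8 of 8 members, 7 with a promoter. Alternatives were another threshold, t references, other filters, centring and another dispersion source. Values of some partner genes are not reported here.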

Additional observations from a re-analysis of the deposited data

Results flagged for a closer look

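Group means in siBsx and siLhx4 stood apart for 3 family genes other than Tle6 and Bcl11b. The log2 difference of siBsx minus siLhx4 was -0.61 for Tle2, 0.35 for Tle3 and 0.27 for Tle4, given as a description with no p. The rebuilt Wald test of the difference called 22.7% of all tested genes. The siBsx values were known when the family was listed, so the 3 differences describe the libraries and are not independent support. Each value compares group means of 3 libraries.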

How the results depend on the processing

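Over 116 values of single family genes under an alternative, 102 kept direction and side of the threshold, 14 kept direction but no longer passed, and 0 reversed. Only centring altered the log2 values, and by little, so a reversal was hardly possible. Under the stricter threshold or a t reference, a gene that had not passed before could not pass either. These totals are therefore not read as support. At an adjusted p of 0.01, 1 family gene (Tle6) passed with siLhx4 in place of 2, and 5 in place of 10 partner genes passed with siBsx. DESeq2 refers its statistic to a normal distribution. With a t distribution of 6 degrees of freedom in its place, set from the number of libraries, 1 family gene passed with siLhx4 (Tle6), and the counts that only describe the family, since siBsx values were known at the listing, were 3 in place of 5 with siBsx and 3 in place of 5 in siBsx against siLhx4. Over all genes the counts were 699, 795 and 1307 in place of 2626, 2558 and 3380. With 4 degrees of freedom, 0 family genes passed with either siRNA (2 and 5 at an unadjusted p under 0.05), and 0 and 36 of all genes passed (2397 and 2323 unadjusted). In that 0, Lhx4 was taken at its deposited DESeq2 p of 1e-200, which appears to be a lower limit. Filters on low counts, centring and the siLhx4 dispersion changed no call of a family gene that could be tested; a minimum mean of 100 leaves Bcl11b untested. No paired analysis was possible because the family has no values per library, and leaving out single replicates was not run for that reason. Bcl11a, at 2.59 to 10.7 normalized counts, has no adjusted p.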
